A study of Mus musculus with 18 samples.

Results

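A run of 9 genes that lie close together on mouse chromosome 6 is described here across 3 brain regions of mice with and without the taste receptor subunit T1R3, the product of Tas1r3. In chromosomal order they were Crebl2, Gpr19, Cdkn1b, Hebp1, Fam234b, Emp1, H2aj, Wbp11 and Smco3. They were chosen by their signal differences between knockout and wild type in these same arrays, so those differences are given as a description. Counts of the differences past limma's threshold restate that choice and support nothing. The 9 genes, of 16593 named genes on the array, had 11 of its 25697 probes. Cdkn1b had 3 probes and each of the others had 1. A probe entered the tests if its detection p was below 0.05 on 3 arrays or more. Of the 11 probes 10 did, among 15476 in all.

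RNA came from dissected cerebral cortex, hippocampus and hypothalamus of male mice 4 to 5 months old. The knockout mice carried the T1R3 knockout and had been bred to C57BL/6J for at least 4 generations, and the wild-type mice were C57BL/6J. Each of the 6 groups of region and genotype had 3 arrays. The labels count 18 animals and number the arrays 1 to 3 in every group. No source says that arrays of the same number came from one animal, litter or day, or that the wild-type mice were littermates of the knockouts, so p-values measure the spread between these samples.

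Cdkn1b encodes p27Kip1, an inhibitor of the cyclin-dependent kinases that drive cells from the G1 phase into DNA replication. It holds dividing cells back and is known for keeping neural precursors and neurons out of the cell cycle, and its protein is removed through the ubiquitin ligase subunit Skp2. Crebl2 encodes a basic leucine zipper protein related to the CREB transcription factors, H2aj a histone H2A variant, and Wbp11 a nuclear protein that binds WW domains and takes part in splicing. Gpr19 is an orphan G protein-coupled receptor expressed in brain, and Emp1 a membrane protein with several transmembrane segments, of the family of the myelin protein PMP22. Fam234b and Smco3 encode membrane proteins of little known function. Hebp1 encodes a haem-binding protein.

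RefSeq promoter windows in the build GRCm38.p6, from 250 bases before to 50 bases after a transcript start, were found for 7 of the 9 genes, with 12 windows in all. Those of 4 genes are shown, because they belong to Cdkn1b and H2aj, which were lower in the knockout, and to Gpr19 and Wbp11, which were higher. They are printed 5′ to 3′ on the strand of the gene, and capitals mark CCAAT or its reverse complement ATTGG, and TTTGGCGC on either strand. No marked runs overlapped.
Cdkn1b, chr6:134920151-134920450, plus strand: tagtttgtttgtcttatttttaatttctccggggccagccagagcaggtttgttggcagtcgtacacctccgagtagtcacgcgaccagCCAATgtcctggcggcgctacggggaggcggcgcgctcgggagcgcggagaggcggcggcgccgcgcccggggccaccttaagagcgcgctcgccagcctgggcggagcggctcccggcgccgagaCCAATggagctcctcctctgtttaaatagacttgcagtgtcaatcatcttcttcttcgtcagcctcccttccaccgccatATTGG
H2aj, chr6:136807998-136808297, plus strand: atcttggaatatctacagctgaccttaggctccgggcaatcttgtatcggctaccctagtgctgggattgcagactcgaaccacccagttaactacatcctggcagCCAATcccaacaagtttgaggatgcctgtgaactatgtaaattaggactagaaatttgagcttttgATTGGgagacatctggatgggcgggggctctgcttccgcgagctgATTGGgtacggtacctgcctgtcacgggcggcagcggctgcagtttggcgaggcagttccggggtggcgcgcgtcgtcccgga
Wbp11, chr6:136828167-136828466, minus strand: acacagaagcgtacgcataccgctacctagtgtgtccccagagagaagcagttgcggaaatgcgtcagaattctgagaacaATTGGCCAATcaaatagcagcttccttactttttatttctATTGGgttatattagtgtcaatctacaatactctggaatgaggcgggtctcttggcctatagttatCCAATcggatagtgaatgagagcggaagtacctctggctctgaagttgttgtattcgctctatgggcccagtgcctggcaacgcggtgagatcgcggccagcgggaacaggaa
Gpr19, chr6:134897876-134898175, minus strand: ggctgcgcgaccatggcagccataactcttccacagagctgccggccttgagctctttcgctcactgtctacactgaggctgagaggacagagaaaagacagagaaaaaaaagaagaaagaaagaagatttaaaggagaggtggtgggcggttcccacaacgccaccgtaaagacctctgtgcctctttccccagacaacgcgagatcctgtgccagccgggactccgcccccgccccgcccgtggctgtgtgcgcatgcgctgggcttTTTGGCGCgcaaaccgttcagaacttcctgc
The windows of Cdkn1b and H2aj each held 3 copies of CCAAT on either strand, and that of Wbp11 held 4. The window shown for Gpr19, the first of its 4, held none. Windows 3 and 4 of Gpr19 each held CCAAT once and no TTTGGCGC. CCAAT was present in the first window of 4 of the 7 genes, and 3 or more copies in 3 of them. Of all 32851 windows, 37.4% held CCAAT at least once and 3.37% held 3 or more copies. The Gpr19 window shown held TTTGGCGC once, a run found in 0.514% of all windows. The motifs were chosen after the windows were seen, and a match of letters is not a binding site.

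Mean signal per array lay between 788 and 1388 intensity units, and 52.1% to 58.1% of probes were detected. Most of the region markers tested were highest in their own region in wild type. In wild type, Pmch and Hcrt, neuropeptide genes of the lateral hypothalamus, averaged 15.20 and 13.08 log2 in hypothalamus against at most 5.90 elsewhere. Fibcd1, a hippocampal marker, averaged 12.74 in hippocampus against 9.24 in hypothalamus. The cortical gene Tbr1 averaged 11.35 in cortex against 9.94 in hippocampus and 5.82 in hypothalamus. Of the other cortex markers tested, Cux2, Mef2c and Lmo4 were also highest in cortex. Rasgrf2 was higher in hypothalamus (7.65) than in cortex (7.49), and Fezf2 was higher in hippocampus (10.16) than in cortex (10.09). Tas1r3 itself was detected on 1 of 18 arrays, with signals of 112.3 to 163.9, so its probe could not check the genotype labels. Several arrays stood apart in markers of other tissue. The mean over 5 of 7 striatum markers was above the wild-type cortex mean by 1.39 log2 on cortex knockout array 1, by 0.65 on knockout array 3 and by 0.60 on wild-type array 2. The mean over 7 of 9 hypothalamus markers was 1.02 higher on cortex knockout array 1. On all 3 cortex knockout arrays the mean over 4 of 7 hippocampus markers was above wild-type cortex, by 0.26 to 0.47. That over 4 of 5 choroid plexus markers was too, by 0.35 to 0.73. Of these markers, Prox1 and Folr1 by themselves were not higher. In hypothalamus, 4 pituitary markers were lower on the 3 knockout arrays by between -3.96 and -1.94, and 4 markers of meninges and fibroblasts by as much as -1.39. On wild-type hippocampus array 1 the choroid plexus markers lay at -2.80 from that group's mean. On all 9 knockout arrays the mean over 5 of 6 oligodendrocyte markers was lower than in wild type, by -0.69 to -0.13. Of these markers, Mbp by itself was not lower in cortex or hippocampus. The mean over 2 of 3 red cell markers was also lower on all 9, by -1.20 to -0.15. The part of these markers in the differences described here was not tested beyond the fits that leave arrays out. Those fits cannot address a shift shared by all knockout arrays of a region. In bulk tissue, fewer cells of a type and less RNA per cell cannot be told apart.

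Among the genes of nuclear proteins, Cdkn1b was lower on the knockout arrays of every region. Levels are normalised log2 intensities, given for arrays 1, 2 and 3 in turn. The first of its probes, the brightest, read 8.07, 7.83 and 7.87 in wild-type cortex and 6.99, 6.63 and 6.17 in knockout cortex. In hippocampus the wild-type arrays read 7.76, 8.13 and 7.92 and the knockout arrays 7.11, 7.59 and 7.58. In hypothalamus they read 7.86, 8.15 and 7.94 in wild type and 7.71, 7.60 and 7.70 in knockout. In these normalised levels every knockout array lay below every wild-type array of its region, by a wide gap in cortex and a narrow one in hypothalamus. In the deposited signal the hypothalamus groups overlapped. There knockout array 1 read 371.6 units, above wild-type arrays 1 and 3 at 347.5 and 357.5. The wild-type means of the 3 regions lay within 0.06 log2 of each other, at 7.92 ± 0.13 (SD, n = 3), 7.94 ± 0.19 and 7.98 ± 0.15. The knockout minus wild type difference was -1.33 ± 0.18 (limma estimate ± SE) in cortex, -0.51 ± 0.18 in hippocampus and -0.32 ± 0.18 in hypothalamus. In linear terms cortex signal averaged 171 ± 34.5 units in knockout and 313 ± 13.2 in wild type. The cortex difference was -0.80 with quantile normalization and no background correction, and -0.83 with the deposited z scores put on the log2 scale. Without the 3 cortex arrays high in striatum markers it was -1.34, which sets a single knockout array against 2 of wild type and so has no spread of its own.

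The other probes of Cdkn1b were close to background. Detection of the second was limited to 4 knockout arrays and 1 of wild type, with signals between 106.2 and 222.1, and its groups overlapped in every region. Its knockout difference was -0.18 ± 0.20 in cortex, 0.19 ± 0.20 in hippocampus and 0.32 ± 0.20 in hypothalamus, so it differed in sign from the brightest probe in the last 2 regions. In hypothalamus it was 0.03 without knockout array 1. The third was detected on 0 of 18 arrays, with signals of 56.1 to 82.6, and was not tested. The lower Cdkn1b signal therefore rests on 1 probe of the 3. Which transcripts each probe reads was not examined here.

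**Figure D1:**
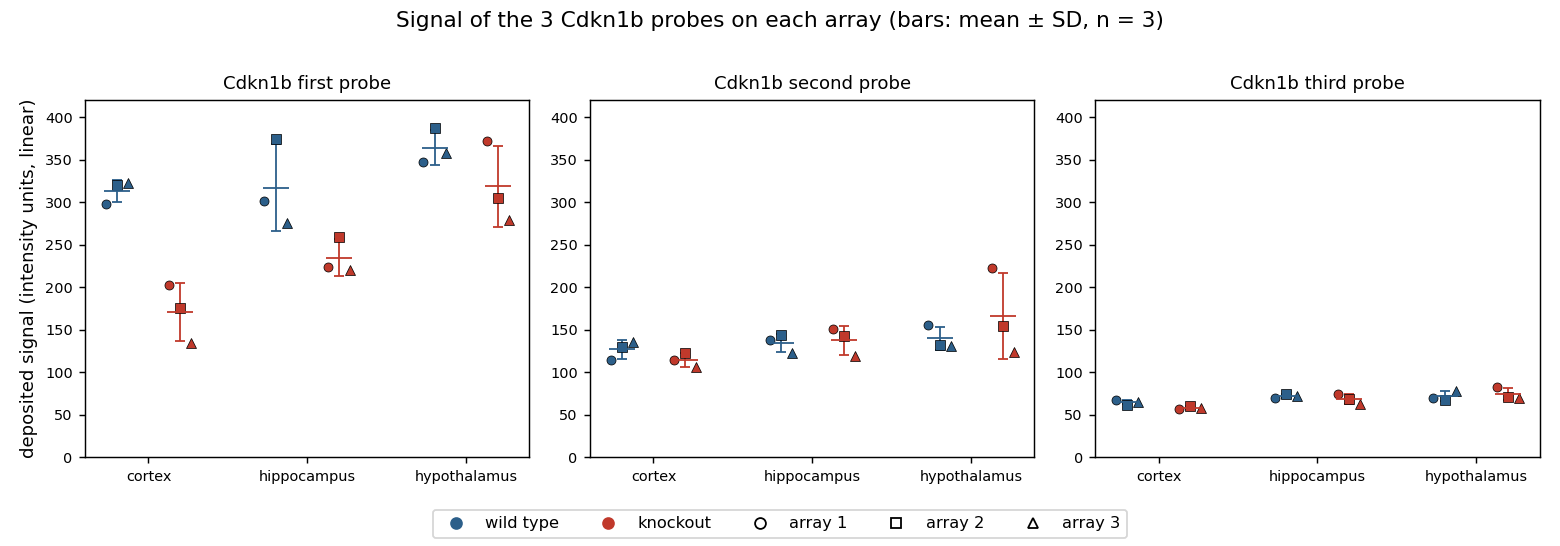
Deposited signal of the 3 Cdkn1b probes on each of 18 arrays, in linear intensity units, by region and genotype, with the group mean ± SD (n = 3). The brightest probe averaged 171 in knockout and 313 in wild-type cortex, while the third stayed between 56.1 and 82.6 on all arrays. In these units, which are not normalised, the genotypes overlapped in hypothalamus at the brightest probe.

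H2aj, the histone variant, was lower on the knockout arrays of every region, and those arrays were far apart. In wild-type cortex it read 8.04, 8.10 and 7.75, and in knockout cortex 5.01, 7.01 and 6.21. In hippocampus it read 8.18, 8.20 and 8.24 in wild type and 4.92, 6.94 and 7.43 in knockout. In hypothalamus it read 7.30, 7.73 and 7.63 in wild type and 4.90, 6.66 and 6.87 in knockout. Every knockout array lay below every wild-type array of its region, and knockout array 1 lay lowest in all 3 regions. All 9 arrays of wild type detected the probe, and 5 of the 9 knockout arrays did. It was not detected on knockout array 1 of any region, where the deposited signals were 85.8, 90.2 and 92.8, nor on cortex knockout array 3. Wild-type levels were at least 3.53-fold above knockout array 1 in cortex, at least 4.51-fold in hippocampus and at least 3.18-fold in hypothalamus, taking each undetected array at the higher of its own value and the lowest detected value. Over the mean of knockout arrays 2 and 3 they were 2.55-fold, 2.03-fold and 1.73-fold higher, cortex array 3 being undetected. The estimated difference was -1.89 ± 0.59 in cortex, -1.78 ± 0.59 in hippocampus and -1.41 ± 0.59 in hypothalamus. Without the knockout arrays numbered 1 it was -1.02 in hippocampus and -0.79 in hypothalamus, and averaged over regions it went from -1.69 to -1.05. Without the 3 cortex arrays high in striatum markers, which leaves knockout array 2 alone in its group, the cortex difference was -0.88. It was -1.10 in cortex, -1.10 in hippocampus and -0.81 in hypothalamus with quantile normalization and no background correction. Other H2A genes are close in sequence, and whether the probe also reads them was not tested.

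Wbp11, next to H2aj, was higher in the knockout in hippocampus. There the knockout arrays read 12.997, 12.62 and 12.44 against 12.24, 12.01 and 12.12 in wild type, and the groups did not overlap. In cortex they read 12.43, 12.03 and 12.17 against 11.96, 12.03 and 11.93, and in hypothalamus 12.05, 11.83 and 11.84 against 11.98, 11.84 and 11.92. The groups overlapped in these regions. The difference was 0.56 ± 0.13 in hippocampus, 0.24 ± 0.13 in cortex and -0.01 ± 0.13 in hypothalamus. In cortex it was 0.13 without knockout array 1, and in hypothalamus it took either sign, between -0.08 and 0.03, as 1 array was left out. Averaged over the regions it was 0.26 ± 0.07, and 0.15 without the knockout arrays numbered 1. In each region knockout array 1 was the highest of the 6 arrays. In the RefSeq table Wbp11 overlaps BC049715, as does Smco3, and which transcript their probes read was not examined here.

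Crebl2, the CREB-related gene, read 8.39, 8.39 and 7.98 in knockout and 8.71, 8.82 and 8.61 in wild-type cortex, where the groups did not overlap. Its other groups overlapped, with knockout levels of 8.15 to 8.55 against 8.43 to 8.73 in hippocampus and 9.30 to 9.60 against 9.48 to 9.70 in hypothalamus. The difference was -0.46 ± 0.14 in cortex, -0.25 ± 0.14 in hippocampus and -0.11 ± 0.14 in hypothalamus. Without knockout array 1 of the region it was -0.14 in hippocampus and -0.02 in hypothalamus. Without the 3 cortex arrays high in striatum markers the cortex difference, then of 1 knockout array, was -0.27. Crebl2 overlaps its neighbour Gpr19 in the RefSeq table, and the signals of these genes differed in opposite directions.

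Among the genes of membrane proteins, Gpr19, the orphan receptor, had a difference of similar size in every region. In cortex the knockout arrays read 10.56, 10.23 and 10.17 and the wild-type arrays 9.70, 9.74 and 9.68. In hippocampus they read 10.63, 10.26 and 10.03 against 9.81, 9.79 and 9.69. In hypothalamus they read 11.005, 10.56 and 10.47 against 10.15, 10.12 and 10.003. All 9 knockout arrays lay above the wild-type arrays of their region, with knockout array 1 the highest each time. The SDs of the wild-type groups were 0.03, 0.06 and 0.08 against 0.21, 0.30 and 0.29 in knockout. The difference was 0.61 ± 0.15 in cortex, 0.54 ± 0.15 in hippocampus and 0.59 ± 0.15 in hypothalamus.

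Smco3, the last gene of the run, was lower in the knockout in every region. In cortex the knockout arrays read 5.93, 7.33 and 7.31 and the wild-type arrays 8.01, 7.94 and 8.32. In hippocampus they read 7.40, 8.03 and 7.76 against 8.64, 8.50 and 8.62. In hypothalamus they read 6.94, 7.61 and 7.09 against 8.76, 8.20 and 8.38. The groups did not overlap in any region, and knockout array 1 was the lowest in each, undetected in cortex. The difference was -1.23 ± 0.30 in cortex, -0.85 ± 0.30 in hippocampus and -1.23 ± 0.30 in hypothalamus. In cortex it was -0.76 without knockout array 1, -0.76 with quantile normalization and no background correction, and -0.79 with the z scores.

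Emp1, the PMP22 relative, was higher in the knockout. It read 8.10, 7.67 and 7.91 in knockout and 7.14, 7.63 and 7.19 in wild-type cortex, and 8.60, 8.37 and 8.76 against 7.90, 8.19 and 8.18 in hippocampus, with no overlap in either. In hypothalamus the knockout arrays, at 8.77, 8.81 and 8.44, overlapped the wild-type arrays at 8.33, 8.45 and 8.29. The difference was 0.58 ± 0.15 in cortex, 0.49 ± 0.15 in hippocampus and 0.31 ± 0.15 in hypothalamus. Fam234b read 8.49 to 8.93 in knockout and 9.06 to 9.22 in wild-type cortex, which did not overlap, and its other groups did. Its difference was -0.44 ± 0.13 in cortex, -0.34 ± 0.13 in hippocampus and -0.09 ± 0.13 in hypothalamus. Without knockout array 1 of the region it was -0.19 in hippocampus and -0.02 in hypothalamus, and without the 3 cortex arrays high in striatum markers it was -0.29 in cortex.

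Hebp1, the haem-binding protein gene, was lower on the knockout arrays of cortex and hippocampus. It read 10.25, 10.17 and 10.48 in knockout and 10.65, 10.60 and 10.63 in wild-type cortex, and 10.39, 10.82 and 10.91 against 11.03, 11.27 and 11.22 in hippocampus. These groups did not overlap. In hypothalamus it read 10.34 to 10.60 in knockout and 10.44 to 10.57 in wild type, and the knockout range spanned the wild-type one. The difference was -0.33 ± 0.12, -0.47 ± 0.12 and -0.03 ± 0.12 in the 3 regions, and without knockout array 1 of the region it was -0.31 in hippocampus and 0.03 in hypothalamus.

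**Figure D2:**
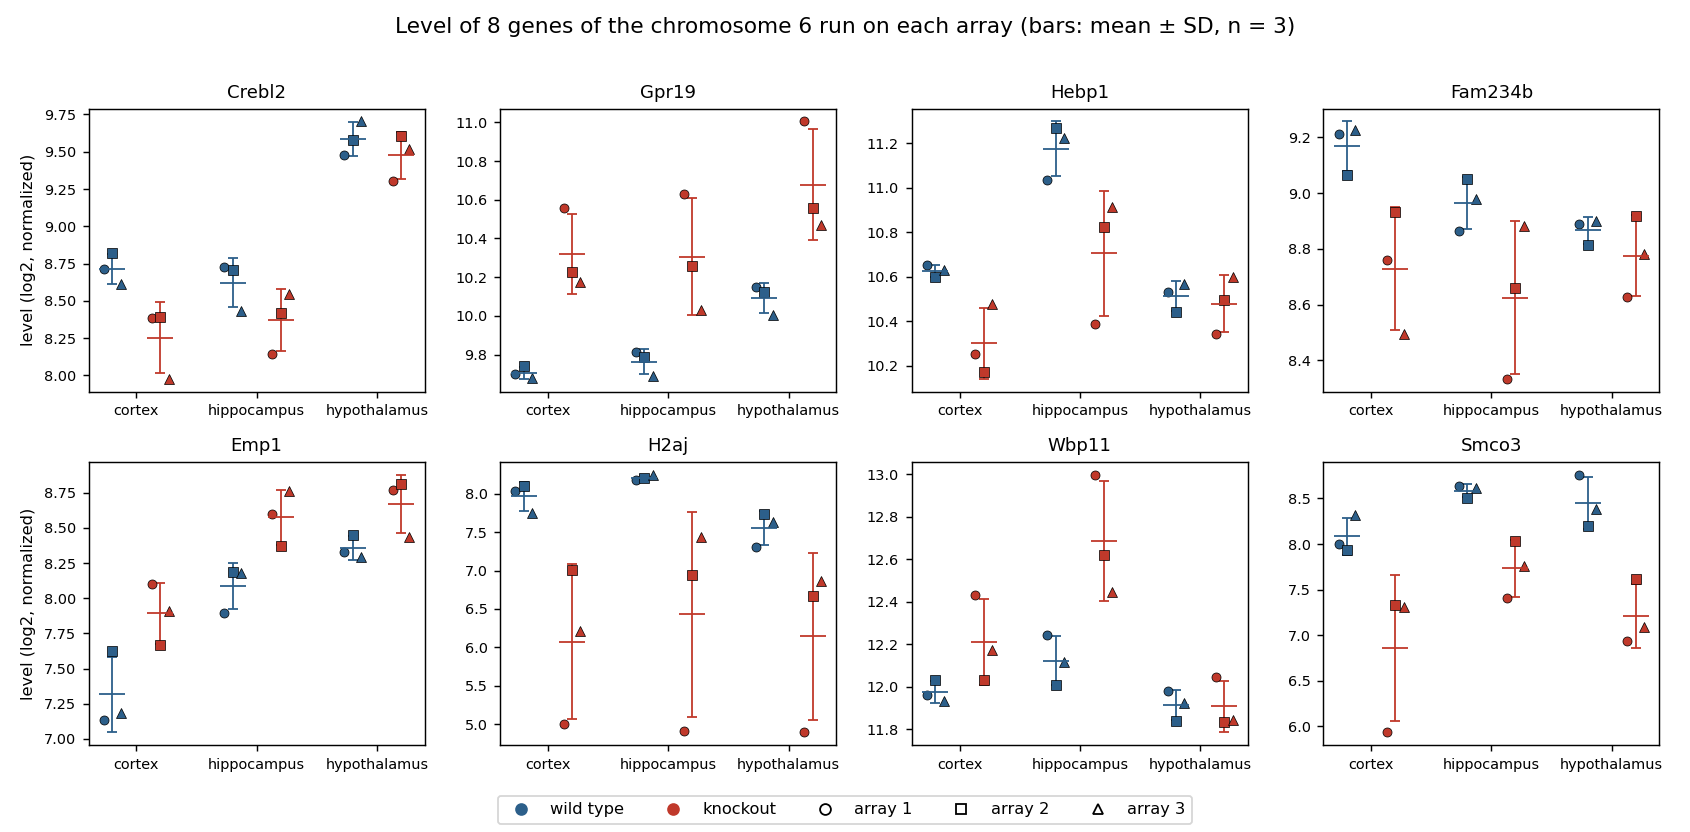
Normalised log2 level of the 8 genes other than Cdkn1b on each array, by region and genotype, with the mean ± SD of each group (n = 3). Gpr19 lay higher and H2aj and Smco3 lay lower on all knockout arrays than on the wild-type arrays of the same region.

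The choice of genes rests on these differences, so the counts that follow describe it. Averaged over the 3 regions, 9 of the 10 tested probes were past the threshold of an adjusted p of 0.05 in limma, as were 6.02% of all probes tested. The 3 higher in the knockout were Gpr19 (0.58 ± 0.09), Emp1 (0.46 ± 0.09) and Wbp11 (0.26 ± 0.07), against 2.96% of all probes. The 6 lower were Crebl2 (-0.28 ± 0.08), the brightest Cdkn1b probe (-0.72 ± 0.10), Hebp1 (-0.28 ± 0.07), Fam234b (-0.29 ± 0.08), H2aj (-1.69 ± 0.34) and Smco3 (-1.10 ± 0.17), against 3.06%. Wbp11 and Crebl2 lay just inside the threshold. With the array number as a random block within genotype, Crebl2, Fam234b and Wbp11 lay outside. In the fit without a block the second Cdkn1b probe, at 0.11 ± 0.12, lay outside. Region by region, 3 of the 10 were past it in cortex, namely Gpr19, Cdkn1b and Smco3, against 2.69% of all probes. In hippocampus 1 was, Wbp11, against 1.25%, and in hypothalamus 1, Smco3, against 1.60%. The genotypes had separate ranges of normalised level for 8 of the 10 probes in cortex, 7 in hippocampus and 4 in hypothalamus. Of all probes, 16.9%, 15.5% and 19.1% had such ranges in these regions. The 4 probes of Gpr19, Cdkn1b, H2aj and Smco3 had separate ranges in every region, with 1 direction throughout, as had 2.35% of all. Of the 10, 8 had 1 sign in all 3 regions, against 38.0%. The median absolute difference was 0.37 over the 10 probes and 0.08 over all probes tested.

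**Figure D3:**
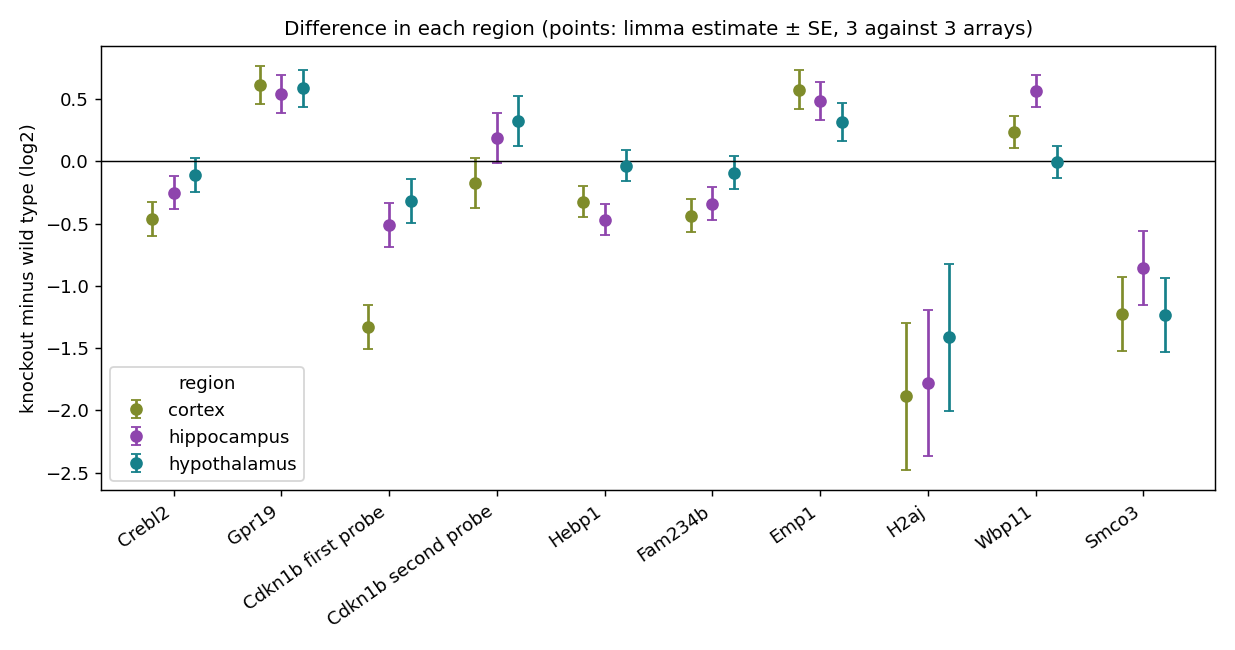
Knockout minus wild type difference in log2 units for the 10 tested probes in cortex, hippocampus and hypothalamus, as limma estimates ± SE from 3 against 3 arrays. The brightest Cdkn1b probe was at -1.33 in cortex and -0.32 in hypothalamus, while Gpr19 lay between 0.54 and 0.61 in all regions.

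How far the knockout difference varied between regions is read from the same values that chose the genes, so it is a description too. In size it was smallest in hypothalamus for 7 of the 10 probes, against 35.4% of all probes. It was largest in cortex for 6, against 39.4%. None of the 10 passed limma's moderated F test of this variation, which called 0.0452% of all probes. Unadjusted p-values under 0.05 were found for 2 of them, and for 1071 of all 15476 probes tested. The smallest adjusted p in limma was that of the brightest Cdkn1b probe (adjusted p = 0.323), whose difference was -1.33 in cortex. Its adjusted p was 0.0268 without cortex knockout array 1, the array highest in striatum and hypothalamus markers, and 0.0200 without the 3 knockout arrays numbered 1. Over all other settings it stayed between 0.243 and 0.678. Wbp11, with 0.56 in hippocampus and -0.01 in hypothalamus, followed (adjusted p = 0.631 in limma). Leaving out the arrays numbered 1 together was chosen after the data were seen. All of these p-values come from the differences that chose the genes, so they support no difference between regions.

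In wild-type tissue the regions differed for 3 of the 10 probes. In wild type, limma's F test over the regions called Crebl2 (adjusted p = 2.62e-05), Emp1 (8.14e-05) and Hebp1 (6.57e-04), against 54.7% of all probes. Crebl2 was highest in hypothalamus, at 9.59 ± 0.11 (SD, n = 3) against 8.71 ± 0.10 in cortex and 8.62 ± 0.16 in hippocampus. Hypothalamus was higher than cortex by 0.87 and than hippocampus by 0.97 log2, and the step between cortex and hippocampus did not pass (adjusted p = 0.693 in limma). Emp1 was lowest in cortex, at 7.32 ± 0.27 against 8.09 ± 0.16 in hippocampus and 8.36 ± 0.08 in hypothalamus. Cortex was below hippocampus by 0.77 and below hypothalamus by 1.04, and the step between the higher regions did not pass (adjusted p = 0.176 in limma). Hebp1 was highest in hippocampus, at 11.17 ± 0.12, above cortex at 10.63 ± 0.03 by 0.55 and above hypothalamus at 10.51 ± 0.07 by 0.66, and the latter pair did not differ by the test (adjusted p = 0.477 in limma). In the pairwise tests 2 of the 10 probes passed between cortex and hippocampus, Hebp1 and Emp1, against 18.6% of all. Between cortex and hypothalamus 3 passed against 49.5%, the third being Gpr19, lower in cortex by 0.39 (adjusted p = 0.0448 in limma), a call lost in 11 of the 18 fits that left out 1 array. Between hippocampus and hypothalamus 2 passed, Crebl2 and Hebp1, against 42.0%.

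The other genes did not pass in wild type. The adjusted p of limma's F test was 0.948 for the brightest Cdkn1b probe, 0.608 for H2aj, 0.349 for Wbp11, 0.317 for Smco3, 0.148 for Fam234b and 0.0769 for Gpr19. Gpr19 did pass with the replicate number as a block (adjusted p = 0.0171 in limma), and without the knockout arrays numbered 1 (0.00289), whose spread enters the error of this test. Without those arrays H2aj (adjusted p = 0.0301 in limma) and Smco3 (0.0438) passed as well. Over all settings the adjusted p of Gpr19 lay between 0.00289 and 0.203. In the knockout, 5 probes passed the same test, against 53.9% of all. The knockout levels are a part of the differences that chose the genes, so these calls are given as a description. Limma's adjusted p was 2.02e-06 for Crebl2, 2.37e-04 for the brightest Cdkn1b probe, 3.77e-04 for Wbp11, 8.23e-04 for Emp1 and 0.0341 for Hebp1. Cdkn1b averaged 6.60 ± 0.41 (SD, n = 3) in knockout cortex, 7.43 ± 0.27 in hippocampus and 7.67 ± 0.06 in hypothalamus, and Wbp11 12.69 ± 0.28 in hippocampus, 12.21 ± 0.20 in cortex and 11.91 ± 0.12 in hypothalamus. That Cdkn1b and Wbp11 passed in 1 genotype does not show that the genotypes differ, and the F test of that difference did not call them. The Hebp1 call in the knockout was lost without cortex knockout array 1 or 2, or hippocampus knockout array 2 or 3, with adjusted p between 0.0761 and 0.143 in limma.

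Knockout arrays numbered 1 stood at the edge of their groups for several of the genes. The level on knockout array 1 minus the mean of arrays 2 and 3 was -1.60 for H2aj in cortex, -2.27 in hippocampus and -1.87 in hypothalamus. It was 0.36, 0.49 and 0.49 for Gpr19, 0.33, 0.46 and 0.21 for Wbp11, and -1.39, -0.49 and -0.41 for Smco3. Knockout array 1 was the highest or the lowest of the knockout arrays in all 3 regions for 4 of the 10 probes and for 7.90% of all probes. A moderated F test of the number among knockout arrays, added after these values were seen, passed for H2aj (adjusted p = 7.10e-04 in limma) and Gpr19 (adjusted p = 0.00964), against 1.04% of all probes. Smco3 (adjusted p = 0.111), Wbp11 (0.160) and Hebp1 (0.306) had unadjusted p-values under 0.05 in limma and did not pass. Gpr19 did not pass without hippocampus knockout array 1 (adjusted p = 0.0573 in limma) or without hypothalamus knockout array 1 (0.0713). Without the 3 arrays numbered 1 the adjusted p was 0.946 for H2aj and 0.435 for Gpr19. Among wild-type arrays the same test called 0 of the 10 probes and 0 of all 15476 in limma, with 836 at an unadjusted p under 0.05. Without the knockout arrays numbered 1, the difference averaged over regions was 0.43 for Gpr19, -0.74 for the brightest Cdkn1b probe and -0.85 for Smco3.

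**Figure D4:**
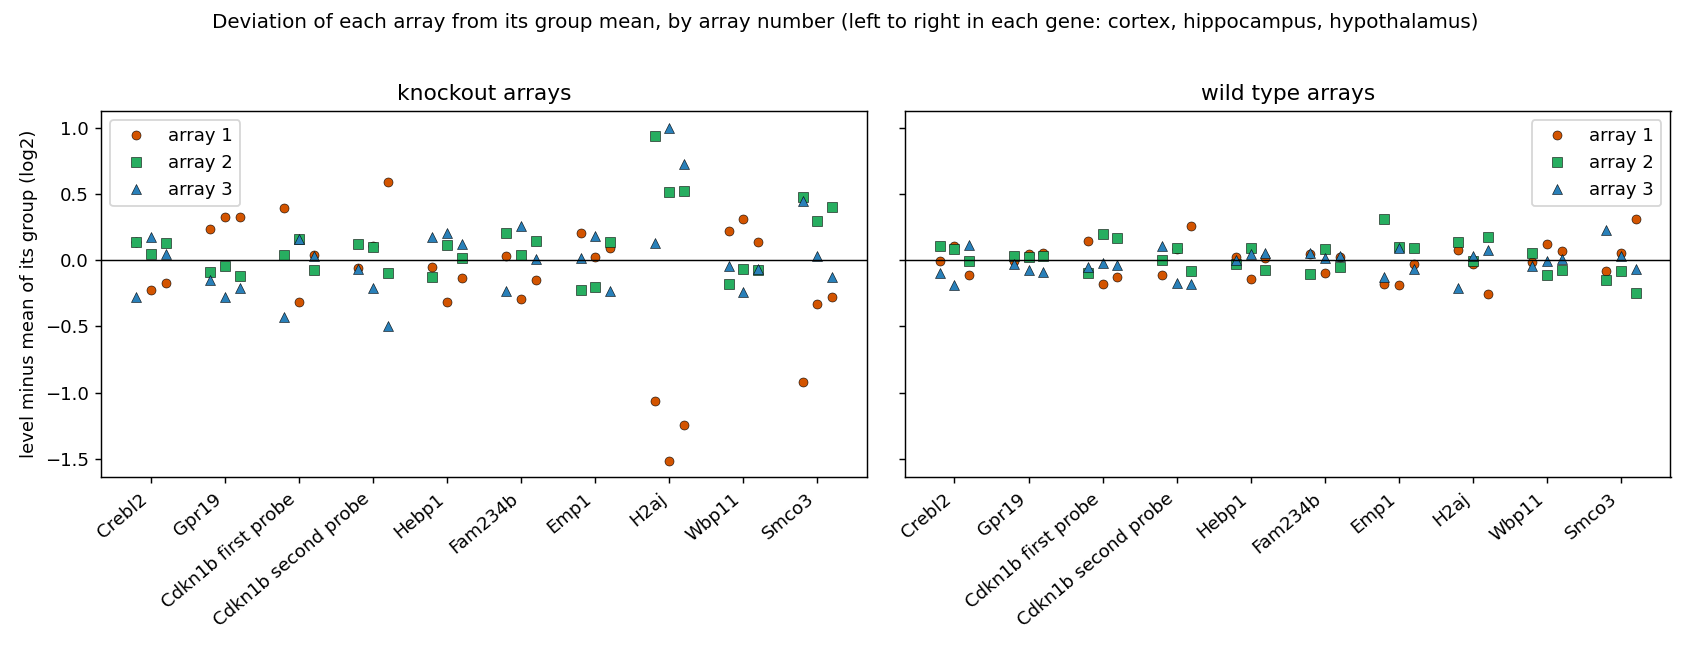
Deviation of each array from its group, by array number, for the 10 tested probes of the 9 genes in log2 units, knockout and wild type in separate panels. Knockout arrays numbered 1 lay at the low edge for H2aj and Smco3 and at the high edge for Gpr19 and Wbp11 in all 3 regions.

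The RefSeq table lists 23 protein-coding genes from Crebl2 to Smco3. Of these, 12 had a tested probe, namely the 9 and 3 that lie between them. Another 6 were on the array and were not tested, and 5 had no named probe. The genes between were Ddx47, an RNA helicase, whose 3 probes differed by -0.04 ± 0.04, 0.05 ± 0.06 and 0.10 ± 0.06 between genotypes averaged over regions. Grin2b, an NMDA receptor subunit, differed by -0.25 ± 0.10 (adjusted p = 0.197 in limma) and Atf7ip, a chromatin factor, by -0.22 ± 0.09 (adjusted p = 0.180). None of these 3 passed in limma, and the latter pair had unadjusted p-values under 0.05. Detection of Grin2b was on 2 knockout and 5 wild-type arrays. Of the 15 tested genes before Crebl2, 1 passed in the average over regions, A2ml1, at the far end of that stretch. Its 2 probes had 0.43 ± 0.08 and 0.47 ± 0.09. Dusp16, a phosphatase gene and the nearest, had 0.17 ± 0.07 and -0.03 ± 0.06. Ybx3, also before Crebl2, passed in a region though not in the average, at 1 of its 3 probes. That probe had -0.56 in hypothalamus, where the others had -0.24 and 0.36. Of the 15 after Smco3, 1 passed, Mgst1, a glutathione transferase, with -2.08 ± 0.53 at a probe detected on 6 knockout and 9 wild-type arrays (adjusted p = 0.0296 in limma). Its other probe differed by 0.18 ± 0.11. The former also passed the test by number among knockout arrays (adjusted p = 6.49e-05 in limma), as did 0 of the genes between or before. The nearest gene after Smco3, the calcification inhibitor Mgp, differed by -0.60 ± 0.19 (adjusted p = 0.0859 in limma). It passed in a region though not in the average, with -1.65 in hypothalamus. There it is also among the meningeal markers that were lower. Some neighbours lay just outside the threshold in limma. They were Klri1 before the run (0.24 ± 0.07, adjusted p = 0.0503) and Rerg after it (0.39 ± 0.11, adjusted p = 0.0530). Klri1 was dim, at a mean of 5.83 log2, and was detected on 4 knockout arrays and 1 of wild type. Lmo3, also after the run, had 0.50 ± 0.14 at its brighter probe (adjusted p = 0.0510 in limma) and 0.08 ± 0.12 at the other. Crebl2, the first gene of the run, lay just inside. Over chromosome 6, 55 of 766 tested probes passed, or 7.18%, against 6.02% in the whole table. The 55 include the 9 probes of the run that passed. Those were chosen for such differences, so this share supports no excess on the chromosome.

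**Figure D5:**
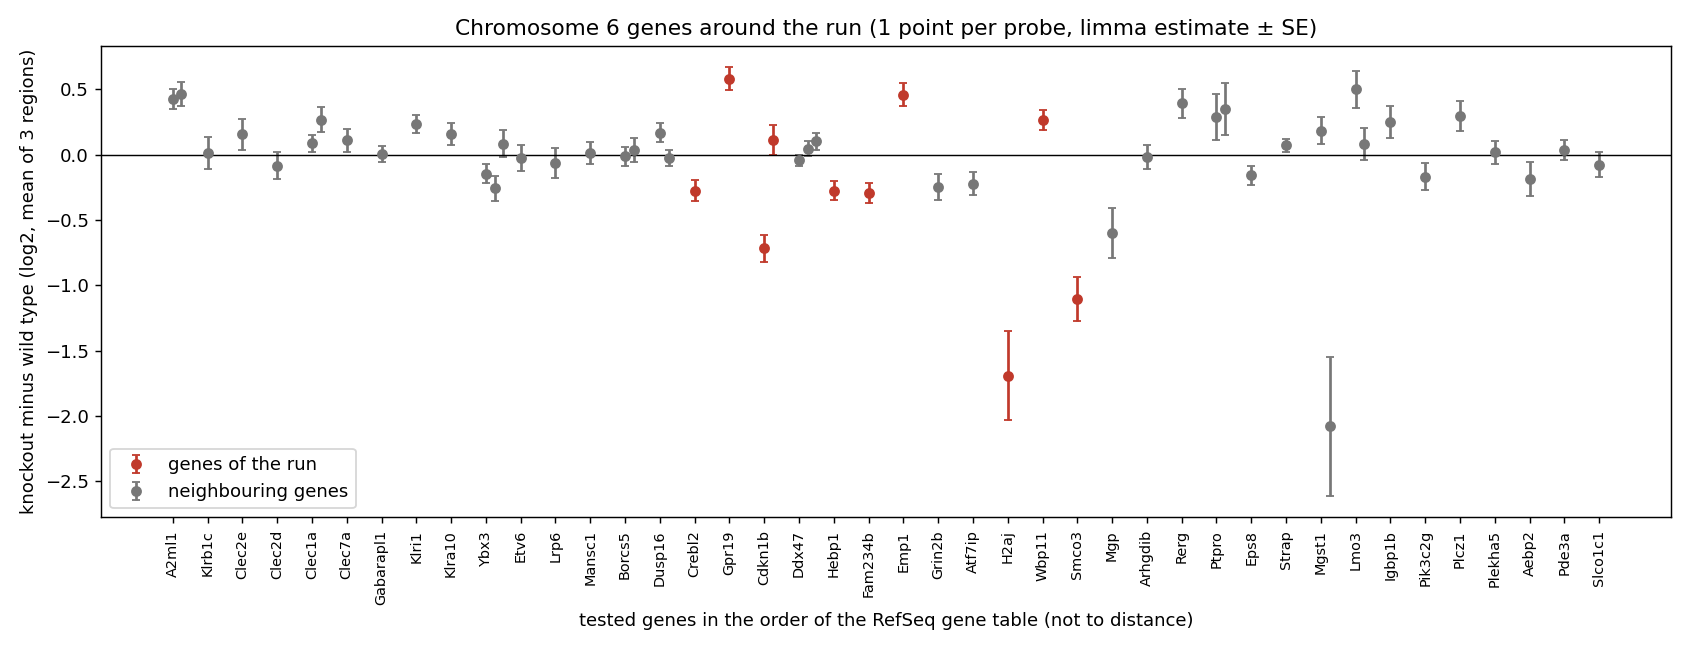
Knockout minus wild type difference averaged over regions, in log2 units, for the tested probes of the 12 tested genes from Crebl2 to Smco3 and of 15 on either side, in chromosomal order. The 9 genes of the run lie among 3 others between -0.25 and 0.10. In the stretches of 15 genes on either side, A2ml1 at 0.43 and 0.47 and Mgst1 at -2.08 passed the threshold. Klri1 at 0.24, Rerg at 0.39 and Lmo3 at 0.50 lay just outside it.

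The genes whose 6 group means most resembled those of the brightest Cdkn1b probe lay on other chromosomes. After each probe was centred on its own mean, the root mean square difference over the 6 groups was 0.143 log2 for Psme4, a proteasome activator gene on chromosome 11, 0.144 for Echdc1 on chromosome 10 and 0.149 for Fbxl18, an F-box protein gene on chromosome 5. In cortex, hippocampus and hypothalamus in turn, the knockout difference of Psme4 was -1.06, -0.35 and -0.14. That of Echdc1 was -0.95, -0.23 and -0.26, and that of Fbxl18 -1.23, -0.54 and -0.37. All 3 were picked for this likeness, so it is a description over 6 means of the same 18 arrays.

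The relatives and partners of the 9 genes mostly did not pass the test for the knockout averaged over regions, in which 6.02% of all probes did. Of 27 tested G1 cell cycle genes and CDK inhibitors, 0 were higher and 1 was lower, the CDK4 and CDK6 inhibitor Cdkn2b on chromosome 4. It fell by 1.10 ± 0.13 log2 (adjusted p = 4.08e-05 in limma), with -1.18, -1.03 and -1.10 in cortex, hippocampus and hypothalamus, each past the threshold in its region. Its 1 tested probe was dim, with a mean level of 6.27 log2. The median difference over this list was -0.03 against 0.01 over all tested genes. Of 14 CREB family members and coactivators, Creb3 on chromosome 4 rose by 0.35 ± 0.05 (adjusted p = 3.49e-04 in limma) and Creb5 on chromosome 6 by 0.67 ± 0.13 (0.00372), and Atf4 fell by 0.31 ± 0.07 (0.0154). The 1 tested Creb5 probe was dim too, at a mean of 6.01 log2. The median of the 14 was -0.01.

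Of 8 tested H2A genes besides H2aj, none passed in limma, 1 with an unadjusted p under 0.05, and the smallest adjusted p was that of H2aw (-0.26 ± 0.09, adjusted p = 0.127). H2ac20 was at -0.09 ± 0.07, and the median of the 8 was -0.05. Among the 4 relatives of Emp1, Emp2 fell by 0.30 ± 0.06 (adjusted p = 0.00406 in limma), opposite in sign to Emp1. Pmp22 itself averaged 0.01 ± 0.05 over the regions, but this mean joins differences of opposite sign. Its hippocampus difference was 0.29 ± 0.09 and its hypothalamus difference -0.26 ± 0.09, both with unadjusted p-values under 0.05 in limma. Neither passed (adjusted p = 0.214 and 0.279 in limma), and the cortex difference was 0.01 ± 0.09. Hebp2 and Fam234a, relatives of Hebp1 and Fam234b, averaged -0.09 ± 0.07 and 0.02 ± 0.08 over the regions and did not pass. The last list held Wbp11 partners and WW domain splicing proteins, and none of its 12 tested genes passed. Prpf8 was at 0.10 ± 0.05 and Ppp1ca, a phosphatase subunit, at 0.10 ± 0.06. The median of the 12 was 0.06, and 0 of them had an unadjusted p under 0.05 in limma.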

How the data were processed

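RNA from 18 arrays, 3 for each of 3 brain regions and 2 genotypes, was measured on Illumina bead arrays. The deposited intensity values are linear bead signals that had not been normalized across arrays, 1 for each probe of an array. Each has a deposited detection p-value, which compares the probe with its array's negative control beads. The submitters' processing notes name GenomeStudio 2011.1. The treatment of background is not stated there. The deposited z score of a probe equalled the log signal minus its array's mean, divided by the array's SD, to within 5e-10.

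The function neqc of limma 3.58.1, run in R 4.3.3, corrected background from the detection p-values, added an offset of 16, equalised the quantiles and took log2. The 15476 of 25697 probes with a detection p below 0.05 on 3 or more arrays entered 1 limma fit of 6 group means with 12 residual degrees of freedom. Adjusted p-values are limma's, by Benjamini-Hochberg over these probes, with a threshold of 0.05. The test by array number had 8 residual degrees of freedom. Scripts were tested on simulated data. The number of arrays limits the precision.

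Probes were named from the platform annotation (1 symbol for 23978, none for 1719), updated through the RefSeq table of GRCm38.p6, which held 14547 of 14554 named probes tested. That table also gave the order of genes. Promoter windows are RefSeq's. The members, gene lists and markers were chosen with earlier results of these data known. Named were all members, genes between them and next to them, neighbours that passed, the 3 genes most like Cdkn1b, and from each list up to 3 past the threshold or the 2 of smallest p. Pmp22, Klri1, Rerg, Lmo3 and Ybx3 were named after their values were seen. Alternatives were the z scores, quantile normalization without background correction, other filters, a replicate block, single regions and leaving out arrays. Batches of slide or scan could not be examined, as neither was known. Plots used Python 3.11.15 and matplotlib 3.10.9.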

Additional observations from a re-analysis of the deposited data

How the results depend on the processing

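The direction of the 9 member differences that passed in the average over regions was the same under every alternative run. Their calls held for 9 of 9 with quantile normalization without background correction and with detection required on all arrays of a group, 8 with the z scores, 7 with no filter on dim probes, and 5 to 9 when 1 array was left out, Crebl2, Hebp1, Fam234b and Wbp11 being those lost. Alternatives chosen after seeing the data kept 5 of 9 without the 3 knockout arrays numbered 1, 4 without the 3 cortex arrays high in striatum markers (H2aj was also lost), where the lone cortex knockout array is assumed to vary like the other groups, and 2, Cdkn1b and Smco3, after arrays sharing a number were averaged, which leaves 3 values against 3. Over the members' tests by region and by array number, 1958 combinations of probe, test and setting stayed on their side of the threshold, 31 moved past it and 23 fell short of it. No difference past the threshold changed sign. Below it, 5 of 1076 combinations of probe, comparison and setting did: in hypothalamus, Hebp1 (-0.03) was at 0.03 without knockout array 1, and Wbp11 (-0.01) at 0.03 without knockout array 2 or 3 or wild-type array 1.

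The count of all probes past the threshold was 932 for the average over regions and 343 with the arrays of a number averaged first. In cortex it was 417, and 654 without the knockout arrays numbered 1, 266 without the 3 cortex arrays high in striatum markers, and 63 with the 6 cortex arrays alone. Leaving out 1 array gave 159 to 660 in cortex, namely 660 and 191 when knockout array 1 or 3 was dropped, and 172 and 159 when wild-type array 1 or 3 was. In hippocampus it was 194, and 94 with its 6 arrays alone. In hypothalamus it was 247, and 147 to 296 with 1 array left out, namely 164 when knockout array 3 was dropped, and 151 and 147 when wild-type array 2 or 3 was. For the difference between regions it was 7, and 4 with the z scores, 3 with no filter, 112 without the knockout arrays numbered 1, 82 without the 3 cortex arrays, and 3 to 129 with 1 array left out, the highest without cortex knockout array 1. By number among knockout arrays it was 161, and 92 to 154 with 1 array left out, with 99 and 105 without array 2 of hippocampus or hypothalamus and 92 without hypothalamus array 3. Fits of fewer arrays have fewer residual degrees of freedom, and the cause of the other changes was not tested.

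With the replicate number as a block, 1034 probes passed in the average over regions, 509 in cortex, 234 in hippocampus, 302 in hypothalamus and 7 for the difference between regions, and 9 of 9 member calls held. A random block within genotype, with a consensus correlation of 0.0688, gave 717 in the average and kept 6 of 9, losing Crebl2, Fam234b and Wbp11. Deviations of same-numbered knockout and wild-type arrays of a region correlated between -0.278 and 0.216, with 3 of 9 above 0.1, so this check did not pair the genotypes. Between regions the correlations of same-numbered arrays had a median of 0.228 in knockout, with 6 of 9 above 0.1, and of 0.0683 in wild type, with 3 of 9. Same-numbered knockout arrays of hippocampus and hypothalamus correlated at 0.218, 0.260 and 0.367. The fit without a block treats all arrays as independent. The block also took Gpr19 past the threshold between wild-type regions (adjusted p = 0.0171 in limma). Dim probes limit the Cdkn1b comparison between probes and the H2aj values on 4 knockout arrays.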
